A study of Homo sapiens with 2 samples.

Results

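Imprinted genes are expressed from the allele of 1 parent, and 10 well-known ones are described here in a pair of established human cell lines, HARA from a squamous cell lung cancer and its subline HARA-B4, which spreads strongly to bone. The genes were chosen by name with earlier results for these arrays known, MEST among them for its large difference between the lines, so the differences below describe these arrays and support nothing further. All probe sets (groups of short probes against 1 transcript) that the platform annotation gives a single gene symbol from that list were taken. That left 19 of 54675 probe sets, which stand for 8 of the 10 genes, out of 19735 genes named on the array. IGF2 and H19 occur only on probe sets with several symbols, 3 and 2 of them, and are not analysed here. Total RNA of each line was hybridised to 1 Affymetrix array after growth in RPMI medium with serum, penicillin and streptomycin, and no treatment is given. There were no replicates (n = 1 array a line), so no value has an error between cultures and no p-value is given. HARA-B4 is a subline of HARA, and whether it came from a single clone is not stated in the labels. The array does not tell the parental alleles apart, so it shows the level of an imprinted gene and not the state of its imprint.

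In an imprinted gene, DNA methylation laid down in the egg or the sperm marks the copy of 1 parent, and the mark is kept in body cells through every division. Paternally expressed genes such as IGF2, MEST and PEG3 tend to favour growth of the fetus and placenta, while maternally expressed ones such as H19, CDKN1C and PHLDA2 tend to limit it. Loss or gain of this marking, with a matching change in expression, is common in tumours. Because 1 copy is silent from the start, loss or silencing of the active copy can remove the transcript altogether.

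Both lines carried the squamous epithelial markers. All 8 measured markers of 10 listed were above background on both arrays, with summed signals of 24798 in HARA and 26983 in HARA-B4, and 2 of the 8 were called higher in HARA-B4. These were KRT15, a basal keratin, at 114 in HARA and 454 in HARA-B4 (a log2 difference of 1.997), and PKP1, a desmosomal plakophilin, at 191 and 672 (1.82). KRT14 differed by 0.90, while KRT5, another basal keratin, stood at 4723 and 4504. Of the 8 markers, 5 had a positive difference and 3 a negative one, KRT5 (-0.07), DSG3 (-0.50) and S100A2 (-0.63). The part of these changes in the imprinted gene differences was not tested. Signal here is the deposited probe set intensity on a linear scale. Background was set at a signal of 27.1 (4.76 on the log2 scale), the 95th percentile of 165 probe sets for taste, olfactory or vomeronasal receptors. Of 6 fibroblast markers only THY1 was above it, in HARA (63.8 against 23.8, at least 2.35-fold lower in HARA-B4), with summed signals of the list at 104 and 69.8. The THY1 bound rests on this level, since both its signals lie under the 99th percentile of the receptor probe sets (94.8). The 5 trophoblast markers, listed because PEG10, PHLDA2 and other imprinted genes are active in placenta, were all at background, with sums of 46.1 and 46.2. The median gene difference, HARA-B4 minus HARA, was 0.02 on the log2 scale over 10202 genes above background on both arrays.

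MEST and DIRAS3 were much lower in HARA-B4, and none of the imprinted genes analysed was higher by 2-fold. A gene is called here when its log2 difference is at least 1 in size (2-fold), or, if it is above background on 1 array only, when the fold against the background level is at least that. Of 11489 genes above background on at least 1 array, 4.2% were called lower in HARA-B4, 3.62% higher and 7.82% either way. Of the 7 imprinted genes above background on at least 1 array, 2 were called lower, 0 higher and 5 neither, and the eighth, PEG3, was at background on both. The median difference of the 7 was -0.22, beside 0.01 for all 11489 genes. Nothing is read from that share, since the genes were picked with this comparison known. The plot of each probe set's signal shows the pair of wide gaps at the top and much narrower ones for the other genes above background.

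**Figure D1:**
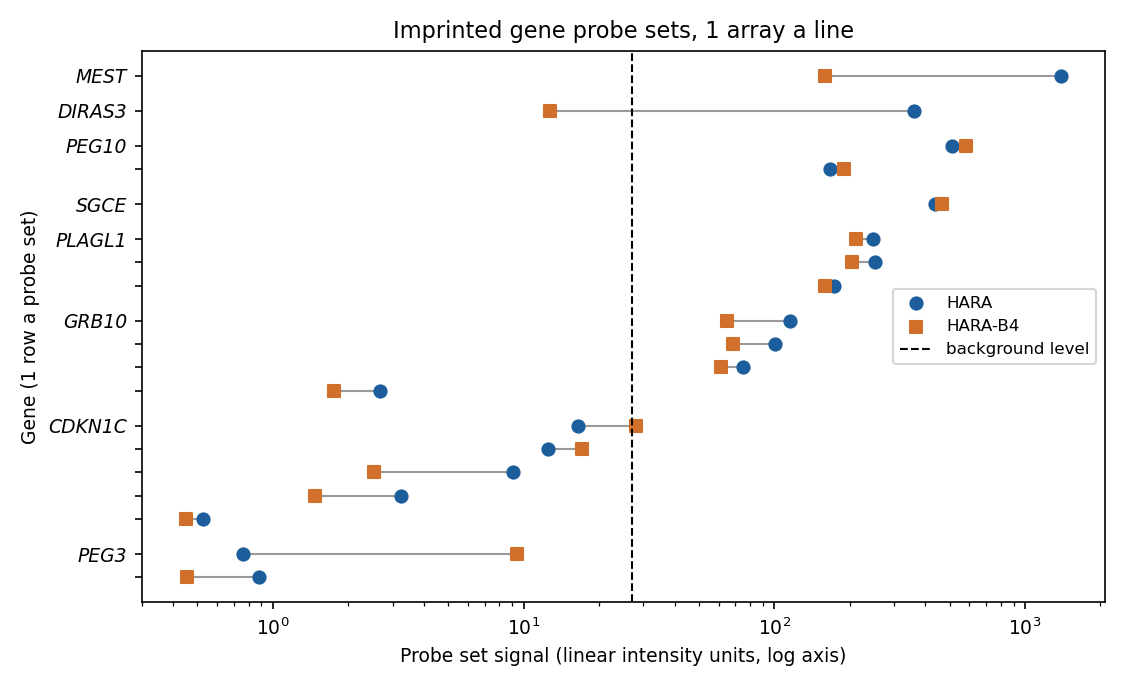
Signals (linear intensity units on a log axis) of the 19 probe sets of 8 imprinted genes in HARA (blue circles) and HARA-B4 (orange squares), 1 array a line and 1 row a probe set, with the background level of 27.1 as a dashed line. MEST lies at 1392 and 159 and DIRAS3 at 361 and 12.8, while the 2 PEG10 probe sets and the 1 of SGCE lie almost on top of each other.

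MEST and DIRAS3 are both paternally expressed and both known for CpG islands whose maternal copy is methylated. Neither trait is particular to them. PEG10, SGCE and PLAGL1, also paternally expressed, differed by 0.19, 0.09 and -0.22, and PEG3 was at background. The upstream sequence of DIRAS3 is shown because its transcript fell under background in HARA-B4 and RefSeq lists a single start for it. The run is the 250 bases before the RefSeq transcript start (GRCh38.p14), read 5′ to 3′ on the gene's strand, with every CpG, the dinucleotide that carries DNA methylation, in capitals. It lies at chr1:68050628-68050877 on the minus strand and holds 17 CpG.
DIRAS3: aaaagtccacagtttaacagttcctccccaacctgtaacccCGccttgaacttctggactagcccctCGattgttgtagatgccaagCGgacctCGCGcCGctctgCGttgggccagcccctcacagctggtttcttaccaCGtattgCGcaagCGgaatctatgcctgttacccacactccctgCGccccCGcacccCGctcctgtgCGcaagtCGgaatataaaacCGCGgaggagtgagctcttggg
These arrays hold no methylation measurement.

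In windows that also take in the 50 bases after the start (300 bases), DIRAS3 had 21 CpG and the 5 starts listed for MEST 13 to 25, the fewest at its most upstream start, against a median of 14 over 35116 RefSeq promoter windows. The PLAGL1 windows ran from 2 to 39 and those of GRB10 from 3 to 49, so these genes held both CpG-poor and CpG-rich starts. The letters TGCCGC, the motif bound by the imprint-protecting zinc finger protein ZFP57 when methylated, were searched on both strands. They occurred in the DIRAS3 window, in 4 of 5 windows of MEST, in 1 of 5 of PLAGL1 and in 1 of 5 of GRB10, against 16.7% of all windows. The window of H19 had 6 CpG and no match. No window was available for PEG10, SGCE, CDKN1C, PEG3 or IGF2, so the list was searched only in part. Windows of nearby starts overlap, and a match is only a match of letters.

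MEST encodes a membrane protein of the alpha/beta hydrolase fold that is abundant in fetal mesoderm and in growing fat tissue, and MIR335 lies within the gene. The signal of its 1 probe set was 1392 in HARA against 159 in HARA-B4. The log2 difference was -3.13, an 8.74-fold lower signal in HARA-B4, and it was the fifth lowest of the 10202 genes above background on both arrays (rank 5). The signal in HARA-B4 was still far above the background level of 27.1, so the transcript was reduced and not lost. No second probe set of MEST was available to repeat the measurement. Over 4830 genes with several probe sets above background, the differences of probe sets of the same gene had an SD of 0.30. That spread is between probe sets on the same arrays and says nothing of how separate arrays or cultures differ.

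DIRAS3, also known as ARHI, encodes a small GTPase of the RAS family that restrains growth and promotes autophagy, and its silencing is known from breast and ovarian cancers. The signal of its 1 probe set was 361 in HARA against 12.8 in HARA-B4, where it was under the background level. DIRAS3 was therefore at least 13.3-fold lower in HARA-B4, with the background level in place of the HARA-B4 value. The bound depends on where background is set. It was 18.5-fold with background at the 90th percentile of the receptor probe sets (a signal of 19.5), 6.65-fold with the level doubled to 54.3 and 3.81-fold at the 99th percentile (94.8). The probe set's name ends in _s_at, which marks probes that match several transcripts, and no other probe set of DIRAS3 was available. Its relatives DIRAS1 and DIRAS2 were at background in both lines, at signals of 17.5 and 3.66 for DIRAS1 and 0.354 and 5.64 for DIRAS2.

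PEG10 and SGCE, paternally expressed neighbours on chromosome 7 that are transcribed away from each other from a shared imprinted promoter region, hardly differed. PEG10 is a gene derived from a retrotransposon that placental development requires. The signal of its brighter probe set was 510 in HARA against 581 in HARA-B4, and that of the dimmer one 167 against 190.0, a log2 difference of 0.19 for both. SGCE encodes epsilon-sarcoglycan, a membrane protein mutated in myoclonus-dystonia, and stood at 439 in HARA and 466 in HARA-B4 (0.09). The within-gene spread of 0.30 is between probe sets on the same arrays, so it is no measure of how such differences vary between cultures. Of the other sarcoglycans, SGCB differed by -0.29 and SGCA and SGCZ were at background.

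PLAGL1, also called ZAC1, is a paternally expressed zinc finger factor that halts the cell cycle and controls other imprinted genes. Its 3 probe sets had signals of 249, 252 and 173 in HARA and 213, 205 and 160 in HARA-B4. All 3 were slightly lower in HARA-B4, by -0.11 to -0.30 on the log2 scale, with an SD of 0.09 between them. Whether separate arrays would differ by as much cannot be told from 1 array a line. Of its relatives, PLAGL2 had a difference of 0.96 (77.4 in HARA and 150.5 in HARA-B4), although another probe set gave 0.17, and PLAG1 reached only 27.3 in HARA-B4, at the background level.

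GRB10, an adaptor that binds and restrains the insulin and IGF1 receptors and is imprinted according to tissue and isoform, came closest to the 2-fold limit without reaching it. Its 3 probe sets above background had signals of 115, 100.4 and 74.8 in HARA and 64.6, 68.6 and 61.3 in HARA-B4. The log2 differences were -0.83, -0.55 and -0.29, so every one was lower in HARA-B4 but their sizes differed nearly as much as the usual spread between probe sets (SD 0.27). The fourth probe set was at background on both arrays. Of all genes above background on both arrays, 10.3% had a larger difference than the -0.83 of the brightest GRB10 probe set.

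CDKN1C and PEG3 were at or close to background. CDKN1C encodes p57, a maternally expressed inhibitor of cyclin-dependent kinases. Of its 5 probe sets 1 was above background, in HARA-B4 only, at a signal of 28.1 against 16.4 in HARA, which gives a bound of 1.04-fold. The related inhibitor CDKN1A (p21) was higher in HARA-B4, at 387 against 123 in HARA (1.66), and CDKN1B (p27) stood at 706 and 622 (-0.18). PEG3, a paternally expressed zinc finger gene, had 2 probe sets, at 0.758 and 0.878 in HARA and 9.38 and 0.454 in HARA-B4, all well under 27.1, and no fold is given. A further probe set that PEG3 shares with another gene symbol is not analysed here.

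MEST did not stand alone in its stretch of chromosome 7. Of its 10 nearest measured genes, 5 on each side in RefSeq order, 3 were above background. The gene just before it, CEP41, a protein of cilia, was lower, at 426 in HARA and 172 in HARA-B4 (-1.31). Another CEP41 probe set gave -0.77, and the call was lost when the probe sets of CEP41 were averaged. The gene just after MEST, COPG2, a coatomer subunit, had a difference of -0.96. CPA4, a carboxypeptidase reported as imprinted in some tissues, had one of 0.07. Among the 24 nearest genes above background on both arrays, 12 on each side, 19 had a negative difference, 5 were called lower and 0 higher, with a median of -0.66. That is 20.8% called. Over the wider set of 11489 genes above background on at least 1 array, 4.2% were called lower and 3.62% higher. PODXL, picked as the lowest of these after its value was seen, fell by 3.22 on the log2 scale, from 506 to 54.2, so the MEST difference was not the largest there. The part of this regional shift in the MEST difference was not tested.

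The neighbours of DIRAS3 shifted less. On chromosome 1, 5 of its 10 nearest genes were above background and 0 were called. GNG12, a G protein subunit, differed by -0.53 and WLS, the carrier that Wnt ligands need for secretion, by -0.95, while GADD45A (-0.14), DEPDC1 (-0.17) and SLC35D1 (0.40) differed less. The 24 nearest genes above background on both arrays had a median of -0.09 and 8.33% of them called. These were CTH, at 260.2 in HARA and 92.3 in HARA-B4, the lowest, and DNAJC6 (1.59), the highest, both picked after their values were seen. The DIRAS3 bound was -3.73 on the log2 scale, and -1.93 with background at the 99th percentile.

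The shared locus of SGCE and PEG10 showed the reverse arrangement. All 5 neighbours above background had negative differences, with a median of -0.37, while SGCE and PEG10 between them had small positive ones. PON3, a paraoxonase, was lower, with 168 in HARA against 48.0 in HARA-B4 (-1.81, not called with background at the 99th percentile). PON2 differed by -0.40, CASD1 by -0.36 and BET1 by -0.28. GNG11 was above background in HARA only, by a bound of 1.29-fold. The wider 24 genes had a median of -0.31, with 17 of them negative, 2 called lower (MTERF1 and PON3) and 1 higher (SAMD9, 1.83).

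**Figure D2:**
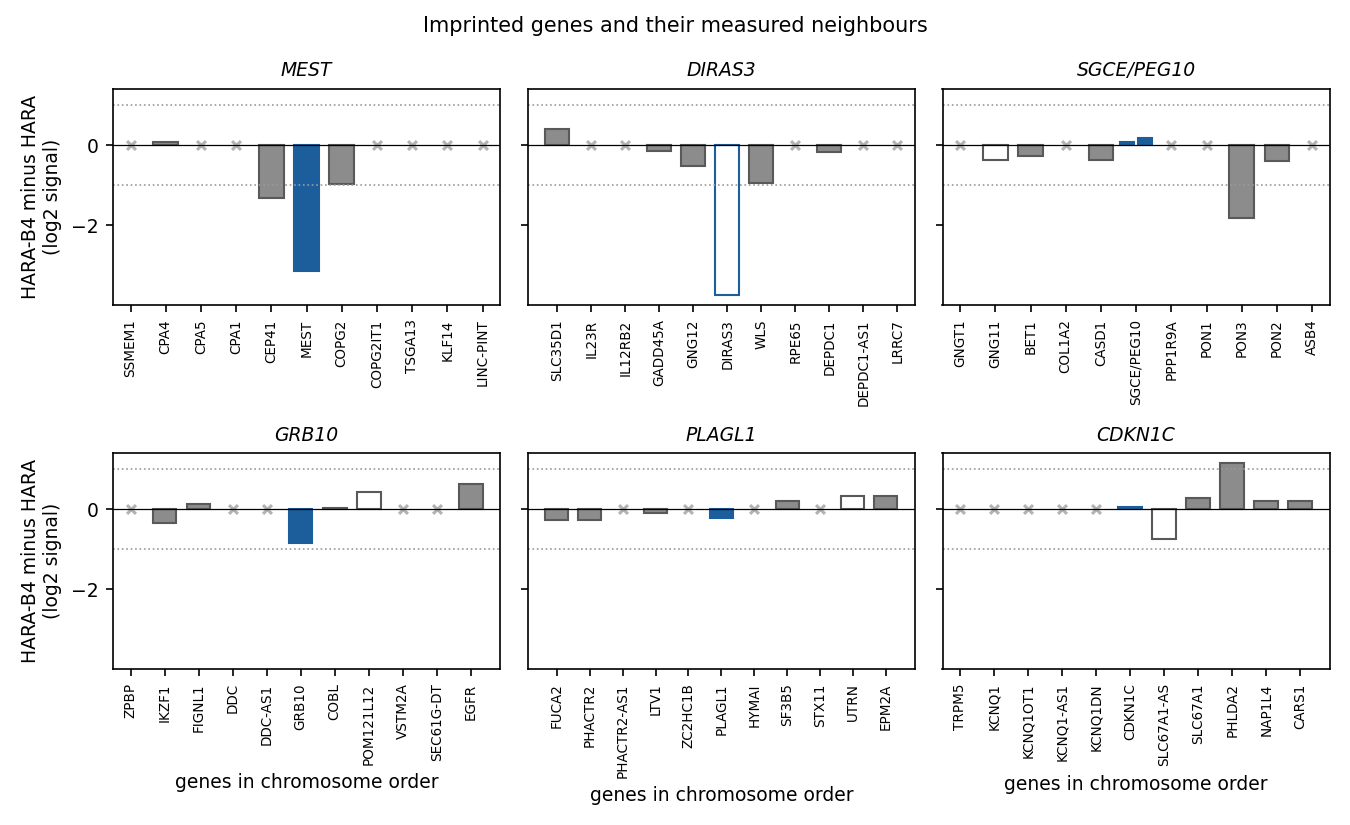
Log2 difference, HARA-B4 minus HARA, of imprinted genes (blue) and of the 5 measured genes on each side in chromosome order (grey), at 6 loci with 1 array a line. Open bars are bounds for genes above background on 1 array only (the CDKN1C and COBL bars are too short to show their fill), crosses are genes at background on both arrays, and dotted lines mark 2-fold. MEST (-3.13) lies between CEP41 (-1.31, called lower) and COPG2 (-0.96, not called), while DIRAS3 (-3.73, a bound) has neighbours from -0.95 to 0.40.

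Around GRB10, PLAGL1, PEG3 and the IGF2, H19 and CDKN1C region of chromosome 11, 1 gene was called among those within 5 places on either side. PHLDA2, a maternally expressed growth-limiting gene near CDKN1C, was higher in HARA-B4, at 788 in HARA and 1759 in HARA-B4 (1.16). Only 1 of its 3 probe sets was above background on both arrays, and the call was lost with _x_at and _s_at probe sets left out. The PHLDA2 neighbours NAP1L4 and CARS1 differed by only 0.19 and 0.21. In the wider windows of 24 genes the medians were 0.20 around CDKN1C, 0.15 around GRB10, 0.05 around PEG3 and -0.10 around PLAGL1. Around PLAGL1 3 genes of the 24 were called lower and 15 were negative, with SAMD5 the lowest (-1.82). TSPAN4 was called lower near CDKN1C (-1.02), 1 gene was called higher near PEG3 (ZNF581, 1.12) and 0 were called near GRB10. EGFR, the fifth measured gene after GRB10, stood at 660 in HARA and 1014 in HARA-B4 (0.62). Over all loci, 2 of 35 neighbours above background were called lower and 1 higher, 8.57% beside 7.82% of all genes, with a median of -0.10. Of the 80 neighbours, 19 are themselves on the list of other imprinted genes below (23.8% of the neighbours and 29.7% of that list's measured genes).

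Other imprinted genes differed in both directions. From a list of 72, named from general knowledge, 64 had a probe set, 32 were above background and 32 were not. Of the 32, 21 had a positive difference and 11 a negative one, with a median of 0.10. The calls were 4 higher in HARA-B4, 1 lower and 27 neither, 15.6% either way beside 7.82% of all genes (3.62% higher and 4.2% lower). The growth and tumour gene WT1, imprinted only in some tissues, went from 0.979 in HARA to 147 in HARA-B4 and was at least 5.40-fold higher. ZNF597, a zinc finger gene, was at least 2.49-fold higher (23.1 and 67.6) and ANO1, a calcium-activated chloride channel, at least 2.16-fold (23.7 and 58.5), and PHLDA2 was the fourth. These bounds rest on the background level. ZNF597 and ANO1 were no longer called with it doubled or at the 99th percentile, and WT1 was 2.70-fold higher with it doubled and 1.55-fold, no longer called, at the 99th percentile. WT1, ZNF597 and LPAR6 also lost their calls when probe sets of a gene were averaged, and PHLDA2 with _x_at and _s_at probe sets left out. The lower gene was LPAR6, a receptor for lysophosphatidic acid that lies inside an intron of RB1, with 140.3 in HARA against 60.3 in HARA-B4 (-1.22, not called at the 99th percentile), while RB1 itself differed by 0.20.

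Genes of other imprinted domains are given by their values, picked after these were seen. DLK1 and MEG3 of chromosome 14 were at background in both lines, as were NDN, MAGEL2 and SNRPN of the Prader-Willi region. NPAP1 of that region reached 27.2 in HARA-B4, at the background level, against 12.1 in HARA. KCNQ1OT1, the antisense RNA that controls the CDKN1C domain, stood at 7.04 in HARA and 6.88 in HARA-B4, under background. GNAS, which encodes the stimulatory G protein subunit, was at 4353 and 5156 (0.24), with its probe sets ranging from -0.46 to 0.62. IGF2R, the receptor that removes IGF2, was at 198 and 214 (0.12), and UBE3A, the ubiquitin ligase lost in Angelman syndrome, at 1305 and 913 (-0.52, and -0.25 at the least by another probe set).

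Genes that lay down or keep imprints, listed together with the TET genes that oxidise methylated cytosine, were called about as often as genes at large. Of 28 listed, 21 were above background, 1 was called higher, 1 lower and 19 neither, which is 9.52% called beside 7.82% of all genes, with a median of 0.03. TET1, which oxidises methylated cytosine, stood at 45.6 in HARA and 104.8 in HARA-B4 (1.20), a call lost with the higher background levels and with the mean of its probe sets. SMCHD1, a chromatin protein that keeps the inactive X and several imprinted clusters silent, stood at 403 and 184 (-1.13), and its probe sets ranged from -1.19 to -0.62. DNMT1, the maintenance methyltransferase, was at 1144 and 777 (-0.56) and its partner UHRF1 at 842 and 804 (-0.07). ZFP57 was at background in both lines, while ZNF445, the other zinc finger protein known to protect imprints, was at 97.9 and 101.1 (0.05).

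Relatives and direct partners of the imprinted genes were likewise called at a share near that of all genes. Of 20 above background, 2 were called higher and 0 lower, 10.0% beside 7.82%, with a median of -0.02, and with quantile normalization 4 were called. Beside CDKN1A, the higher one was IGF2BP1, an RNA-binding protein that attaches to IGF2 and H19 transcripts. IGF2BP1 stood at 6.25 in HARA and 59.7 in HARA-B4 (at least 2.20-fold). Its call was lost with the higher background levels, the mean of its probe sets and log2(signal + 16). GRB7, a relative of GRB10, was just short of 2-fold at 42.3 and 84.3 (0.996). IGF2BP2 and IGF2BP3 differed by -0.65 and -0.06. The IGF1 receptor, through which IGF2 acts, stood at 403 and 554 (IGF1R, 0.46, up to 1.13 by another probe set), and the insulin receptor INSR was above background in HARA-B4 only, by a bound of 1.87-fold. LIN28B was above background in HARA only, at 39.7 against 15.6.

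**Figure D3:**
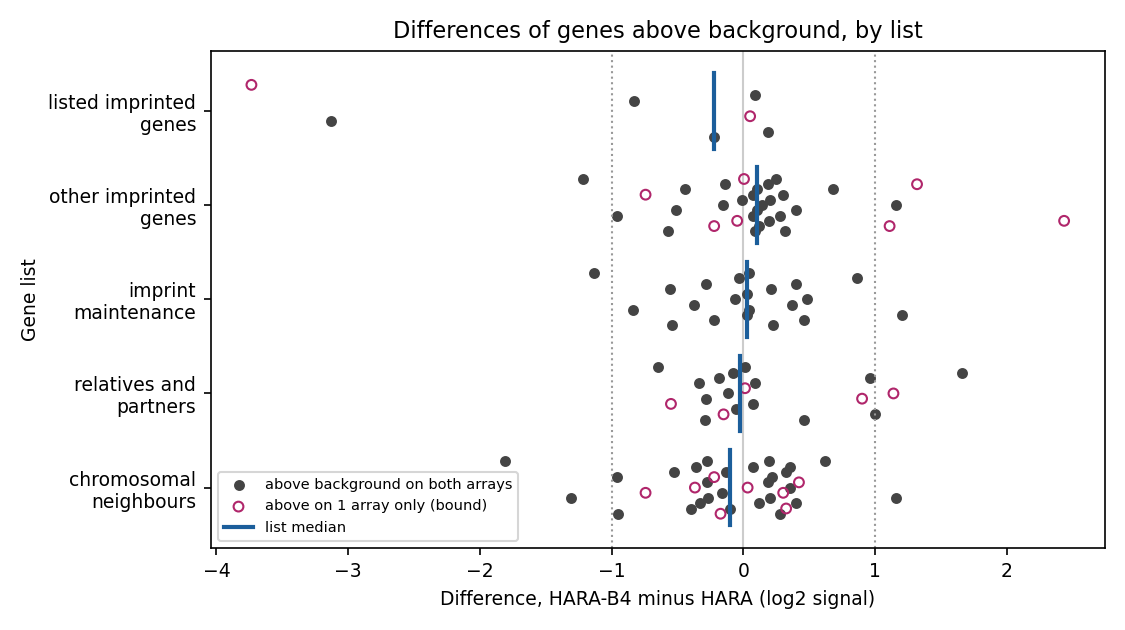
Log2 difference, HARA-B4 minus HARA, of each gene above background on at least 1 array, by gene list, with 1 array a line. Filled points were above background on both arrays, open points on 1 array only (a bound), blue bars are list medians (-0.22 for the listed imprinted genes, 0.10 for other imprinted genes) and dotted lines mark 2-fold; MEST and DIRAS3 lie apart at the left.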

How the data were processed

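Total RNA of HARA and HARA-B4 was measured on 1 array each. The authors deposited linear probe set intensities, made with Affymetrix Expression Console per the submitters' processing notes; no source used here gives its version, algorithm or scaling. The logarithm to base 2 was taken without rescaling (Python 3.11.15, pandas 2.3.3). Of 54675 probe sets, 41097 had 1 gene symbol, 1801 several and 11777 none; 41043 of the first were matched by Entrez ID to RefSeq (GRCh38.p14), which also gave gene order and promoter sequences. Where a gene had several probe sets, the one brightest on average over both arrays stood for it. With 1 array a group there is no test, and their number limits the precision. Scripts were tested on simulated data. The genes, lists and call rule were chosen with earlier results of these data known. All listed imprinted genes are named; of other lists, those at 2-fold up to 8 in each direction, or else the 2 brightest; of neighbours, up to 4 a locus. Other genes were named as the flanking genes, family members or domain genes the text describes, after their values were seen. The blood, endothelial and alveolar marker lists had 2 of 5, 1 of 4 and 3 of 5 genes above background and 0 called. Alternatives changed the scaling, background, probe set, log scale, fold and window.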

Additional observations from a re-analysis of the deposited data

How the results depend on the processing

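MEST was called lower under all 11 alternatives, and its log2 difference ran from -3.15 to -3.01 over the 9 that could move it. DIRAS3 was called lower under the 10 that gave it a value, and its bound ran from -4.21 to -1.93 over the 8 that could move it. With _x_at and _s_at probe sets left out DIRAS3 had no value, which left 1 imprinted gene called lower. GRB10 was called lower only with a fold of 1.5, which made 3, and its difference ran from -0.85 to -0.28. With that fold 21.3% of all genes above background were called either way, beside 7.82% at the main setting. None of the 8 genes was called higher under any alternative.

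The small counts of the other lists moved more. Over all genes above background, 7.82% were called either way at the main setting. The share was 8.52% with the background at the 90th percentile, 5.55% at the 99th and 6.54% raised by 1. The mean of all probe sets gave 7.48%, no _x_at or _s_at probe sets 7.96% and log2(signal + 16) 5.65%. Quantile normalization gave 7.98%, a fold of 1.5 21.3% and a fold of 3 2.58%. The other imprinted genes above background went from 32 to 19 at the 99th percentile. For other imprinted genes, the lower count was 2 with the background at the 90th percentile, 0 at the 99th, 3 with a fold of 1.5 and 0 with a fold of 3. The higher count was 1 at the 99th percentile and with a fold of 3, and 2 with the background raised by 1, the mean of all probe sets, no _x_at or _s_at probe sets, or log2(signal + 16). For neighbours, the lower count was 1 at the 99th percentile, with the mean of all probe sets and with a fold of 3, and 5 with a fold of 1.5 or 10 genes on each side. The higher count was 0 without _x_at and _s_at probe sets and with a fold of 3, and 2 with a fold of 1.5. For imprint maintenance genes, the count in either direction was 1 at the 99th percentile, with the background raised by 1, the mean of all probe sets and log2(signal + 16), 4 with a fold of 1.5 and 0 with a fold of 3. For relatives and partners it was 4 with quantile normalization and at the 90th percentile, 6 with a fold of 1.5, and 1 at the 99th percentile, with the background raised by 1, the mean of all probe sets, no _x_at or _s_at probe sets, log2(signal + 16) and a fold of 3. Fewer probe sets or another threshold changes which genes can be called. Otherwise the cause was not tested. No paired analysis was possible because each line has 1 array.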
